A study of Mus musculus with 6 samples.

Results

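Immediate-early genes are switched on by growth factors, depolarisation, injury and handling from factors already present in the cell, without new protein synthesis, and most of their mRNAs are short-lived. A set of 10 was followed here in RNA from dorsal root ganglia of mouse embryos, which hold the cell bodies of sensory neurons with their glia. They were Fos, Fosb, Jun, Junb, Jund, Egr1, Ier2, Atf3, Dusp1 and Btg2, and each was found by matching its Ensembl transcripts to its symbol in GENCODE M21. They made up 10 of 37086 genes, with 18 of 93615 deposited transcripts and 98 mRNA, exon and intron entries. In many tissues these genes rise while the tissue is dissected and dissociated, and in adult ganglia Atf3 and Jun are classic markers of axon injury.

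All 6 libraries came from 1 RNA pool, made from the ganglia of 18 wild-type C57BL/6J embryos at E14.5 (Theiler stage TS22, sex unknown) and lysed in TRIzol-LS after dissection. The high-volume group was 3 libraries made with the SMARTer HV kit from RNA in a larger volume, at inputs of 3, 10 and 30 ng. The low-volume group was 3 libraries made with the standard SMARTer Ultra Low kit from RNA in a smaller volume, at the same inputs. Each kit was used at 1 RNA volume, so volume and kit cannot be told apart here. SMARTer kits copy RNA from its poly(A) tail and amplify the whole cDNA. The libraries are technical repeats, every p-value measures only their spread, and nothing here measures spread between embryos. All 6 were dissected tissue, with no sample taken before dissection, so a change upon dissection cannot be tested from these data. The comparisons ask whether the level found for a gene depended on the reaction volume with its kit, or on the RNA input.

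Tags in the transcript used for each gene totalled 14160397, 23511760 and 25867688 in the high-volume libraries at 3, 10 and 30 ng. The same totals were 15920990, 26826281 and 31524210 in the low-volume libraries. Of the markers, 8 of 8 sensory neuron markers and 6 of 6 glial markers averaged 1 RPKM or more, against 0 of 5 spinal cord markers. RPKM is the read count scaled to transcript length and library size. Blood vessel, meningeal, macrophage, red cell and skeletal muscle markers were also present, with 3 of 4 muscle markers at 1 RPKM or more (Mylpf 22.0, Acta1 10.1 and Myog 1.41 RPKM). In bulk RNA fewer cells of a type and less RNA per cell cannot be told apart. The summed RPKM of the 5 red cell markers was 5147, 4855 and 4784 in the high-volume libraries and 4780, 3953 and 4351 in the low-volume ones, and its part in the results on these genes was not tested.

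In the deposited coordinates (GRCm38.p1) Fos spans chr12:85473890-85477273 (plus strand) and Jun chr4:95049034-95052222 (minus). Jund spans chr8:70697739-70700616 (plus), Ier2 chr8:84661331-84662852 (minus) and Junb chr8:84976909-84978748 (minus). Atf3 spans chr1:191170296-191183340 (minus), Btg2 chr1:134075170-134079120 (minus), Dusp1 chr17:26505591-26508474 (minus) and Fosb chr7:19302721-19310045 (minus). Promoters of this class are known for response elements that answer cAMP, calcium and MAP kinase signals. The 250 bases before the RefSeq start (GRCm38.p6) were available for 8 of the 10 genes, Egr1 and Ier2 being the others. Of these, 5 are printed 5′ to 3′ because together they show the response elements and the TATA motif named after them, which capitals mark. The Fos window is chr12:85473640-85473889 (plus strand), Fosb chr7:19310046-19310295 (minus), Jun chr4:95052223-95052472 (minus), and Btg2 chr1:134079156-134079405 (minus). Dusp1 is shown at chr17:26508520-26508722 (minus), without the 47 bases of its window that fall inside a deposited transcript.
Fos: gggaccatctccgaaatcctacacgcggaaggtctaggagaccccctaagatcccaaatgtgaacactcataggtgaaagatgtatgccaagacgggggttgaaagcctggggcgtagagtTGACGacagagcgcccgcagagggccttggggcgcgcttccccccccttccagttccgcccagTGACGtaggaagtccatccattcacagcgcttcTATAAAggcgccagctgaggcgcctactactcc
Fosb: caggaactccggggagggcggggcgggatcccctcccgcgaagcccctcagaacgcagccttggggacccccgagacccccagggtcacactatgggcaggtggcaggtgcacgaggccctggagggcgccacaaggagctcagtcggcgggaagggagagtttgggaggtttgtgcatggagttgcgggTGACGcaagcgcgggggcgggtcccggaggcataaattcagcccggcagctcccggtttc
Jun: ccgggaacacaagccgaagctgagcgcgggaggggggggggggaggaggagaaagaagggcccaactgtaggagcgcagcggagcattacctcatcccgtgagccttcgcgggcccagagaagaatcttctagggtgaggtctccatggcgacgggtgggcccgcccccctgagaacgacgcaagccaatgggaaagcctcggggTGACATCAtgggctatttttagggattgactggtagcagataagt
Dusp1: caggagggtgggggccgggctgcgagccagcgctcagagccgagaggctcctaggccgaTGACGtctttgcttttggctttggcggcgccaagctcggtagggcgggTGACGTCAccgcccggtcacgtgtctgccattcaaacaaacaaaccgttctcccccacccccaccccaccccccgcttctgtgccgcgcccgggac
Btg2: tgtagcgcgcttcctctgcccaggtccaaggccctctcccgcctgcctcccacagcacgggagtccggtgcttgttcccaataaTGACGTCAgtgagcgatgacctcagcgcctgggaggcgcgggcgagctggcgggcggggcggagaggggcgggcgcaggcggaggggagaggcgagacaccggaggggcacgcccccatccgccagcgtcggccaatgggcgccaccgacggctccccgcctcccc

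The full cAMP response element TGACGTCA, the site bound by CREB and ATF proteins, stood in the Dusp1 and Btg2 windows, and 1.55% of 32851 promoters of the same length hold it. Its core CGTCA, searched on both strands and counted also inside the full element, stood in the windows of Fos, Fosb, Junb, Atf3, Dusp1 and Btg2, against 17.8% of all promoters. Atf3's match lay in the last 7 bases of its window, which fall inside a deposited transcript. Jun held TGACATCA, the variant site through which Jun and ATF proteins act on the Jun gene itself, as did 2.93% of promoters. Fos held TATAAA 33 bases before its start, and 12.4% of promoters hold that motif. CCAAT, left in lower case because 33.8% of promoters hold it, was matched in the windows of Btg2, Jun and Junb. The AP-1 site TGANTCA and the CArG box of serum response factor were in none of the 8 windows, against 6.75% and 1.47% of promoters. Sites farther upstream, and any site of Egr1 or Ier2, were not searched. A match describes letters in this window and no binding was measured.

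The 10 genes were low to moderate in these ganglia. Over 6 libraries, mean RPKM ran in the order Jund, Btg2, Jun, Ier2, Dusp1, Atf3, Egr1, Fos, Junb and Fosb. The first 5 averaged 3.40 to 5.09 RPKM, above the median of 1.68 RPKM over the 21441 genes with 5 or more tags, and under their 75th percentile of 7.70 RPKM. Atf3, Egr1, Fos and Junb averaged 0.469 to 1.24 RPKM, and 30.9% to 44.9% of those genes lay lower. Within the order, the mean difference between neighbours on the log2(RPKM + 1) scale was larger than its SD over libraries in only 2 of the 9 steps. These were Dusp1 over Atf3 (0.95 ± 0.49, SD, n = 6 libraries) and Junb over Fosb (0.51 ± 0.39).

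**Figure D1:**
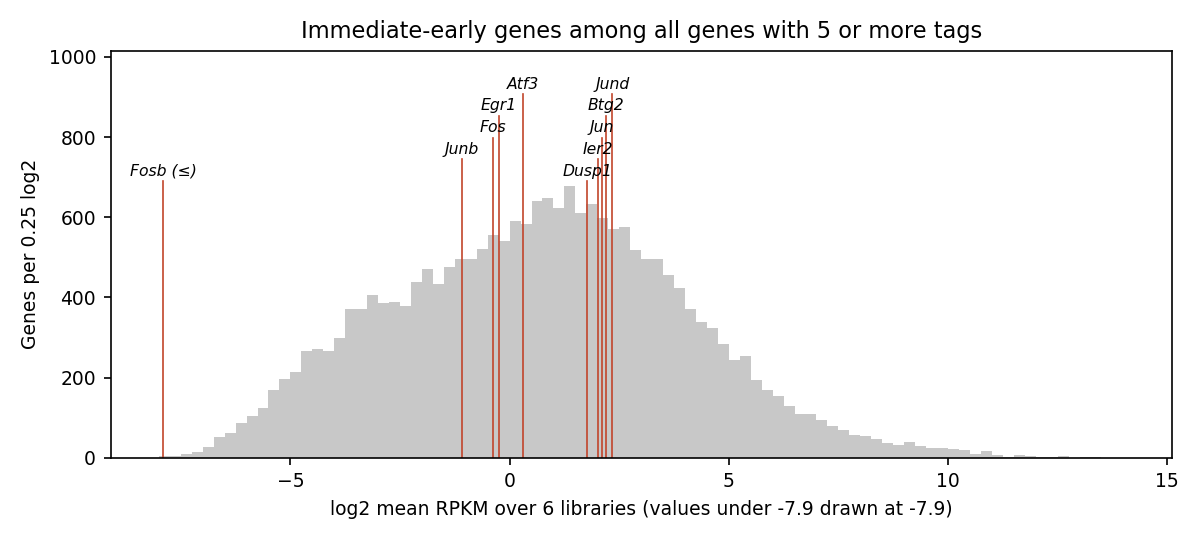
Histogram of log2 mean RPKM over 6 libraries for the 21441 genes with 5 or more tags (grey bars, genes per 0.25 log2), with a red line at each of the 10 genes. Jund, Btg2, Jun, Ier2 and Dusp1 stand together above the median of 1.68 RPKM, Atf3, Egr1, Fos and Junb stand below it, and Fosb is drawn at the left edge.

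Fos and Fosb encode basic leucine zipper proteins that pair with Jun proteins to form AP-1. Fos is the standard marker of recent neuronal activity. It had 0, 40 and 27 tags in the high-volume libraries at 3, 10 and 30 ng, against 63, 43 and 69 tags in the low-volume libraries. In RPKM the values were 0, 0.734 and 0.454 in high volume, against 1.77, 0.702 and 0.964 in low volume. The groups overlapped, and the 3 ng libraries were the lowest of the high-volume group and the highest of the low-volume group. A count of 0 at 3 ng in high volume allows up to 3 tags, or 0.212 CPM (tags scaled to library size), while the low-volume library at 3 ng had 3.96 CPM. Between those 2 libraries of the same RNA, the low-volume value stood 18.7-fold above that floor, with its 63 tags taken as exact. The 95% counting interval was 3.04 to 5.06 CPM in low volume and reached at most 0.261 CPM in high volume. Fosb, a close relative of Fos, had 0, 0 and 1 tags in high volume and 0, 0 and 0 tags in low volume. It was too low to test, and a count of 0 allows at most 0.0309 RPKM at 10 ng in high volume and 0.0275 RPKM at 10 ng in low volume.

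The 3 Jun genes, the partners of Fos, kept their places among each other in part. Jund, the member known to be present in resting cells, had 7.83, 5.08 and 4.51 RPKM in the high-volume libraries, against 5.11, 3.79 and 4.19 RPKM in the low-volume libraries. Jun, which is also raised by stress kinase signalling, had 3.85, 5.27 and 4.59 RPKM in high volume and 6.08, 2.68 and 3.35 RPKM in low volume. Junb, often a brake on Jun, had 1.30, 0.462 and 0.366 RPKM in high volume and 0, 0.337 and 0.352 RPKM in low volume. Jund was higher in high volume at each input but its groups overlapped, as did those of Jun. Junb alone of the 9 tested genes had CPM values that did not overlap between groups. Its lowest high-volume value was 0.735 CPM and its highest low-volume value 0.698 CPM, and over all 16742 tested genes 17.5% did not overlap (4.59% higher, 12.9% lower). At 3 ng Junb had 37 tags in high volume and 0 in low volume. Its high-volume value stood 13.9-fold above a floor of 3 tags, with its 37 tags taken as exact. At 10 ng its 22 tags in high volume compared with 18 tags in low volume. At 30 ng its 19 tags in high volume compared with 22 tags in low volume.

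Within libraries, levels were compared per length for 10 pairs of genes. Junb was lower than Jun by 1.86 log2 units and Jund was higher than Junb by 2.07, each in 6 of 6 libraries. The difference on the log2(RPKM + 1) scale was -1.62 ± 0.48 for Fos minus Jun and 1.43 ± 0.98 for Ier2 minus Fos (SD, n = 6). It was -1.24 ± 0.23 for Atf3 minus Jun and 1.23 ± 0.40 for Dusp1 minus Egr1. These 6 pairs and Btg2 minus Dusp1 (0.36 ± 0.32) each gave p = 0.0312 by a two-sided exact permutation test, the smallest 6 libraries allow, and 0.0446 after Benjamini-Hochberg adjustment over the 10 pairs. Jund minus Jun, 0.20 ± 0.39, was above 0 in 3 of 6 libraries (exact permutation p = 0.312, adjusted 0.347). Egr1 minus Fos gave 0.10 ± 0.73 (exact permutation p = 0.719) and Fosb minus Fos -0.76 ± 0.49 (exact permutation p = 0.0625, adjusted 0.0781). The calls depend on the transcript used: with the transcript of highest mean RPKM, Btg2 minus Dusp1 was 0.19 and the adjusted exact permutation p of the other 6 pairs became 0.0521. Leaving out any 1 library also ended every call, since 5 libraries cannot give an exact p under 0.0625, although the 7 pairs kept their order in each library.

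**Figure D2:**
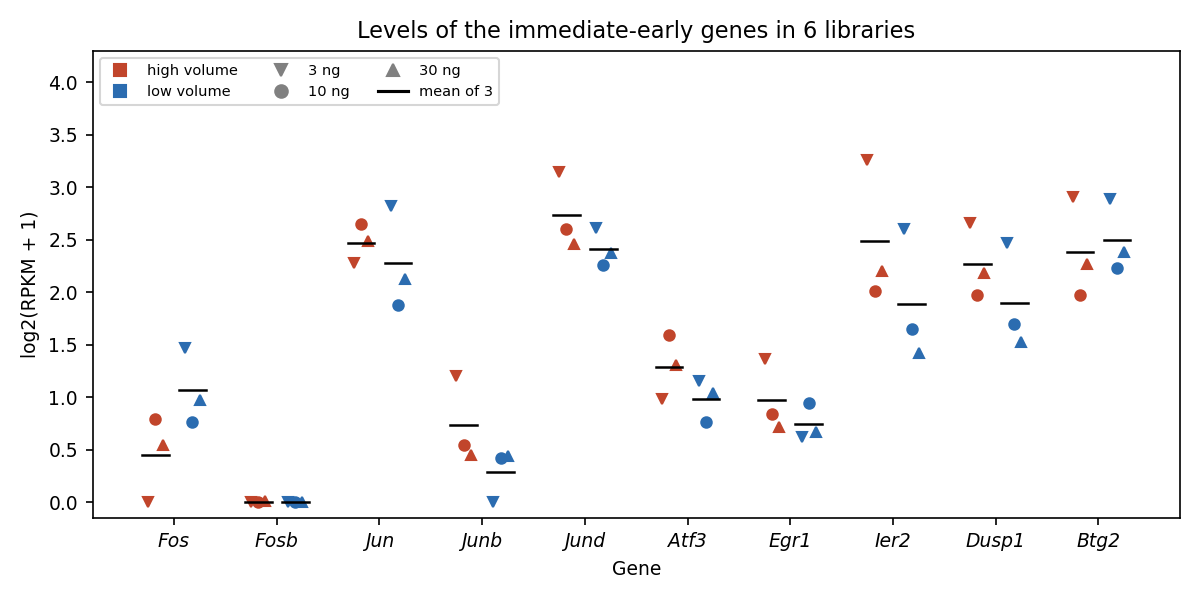
log2(RPKM + 1) of each gene (x axis) in each library, high volume in red at the left of each pair and low volume in blue at the right, with the mean of 3 libraries as a black line and the input shown by the marker. Fos at 3 ng is 0 in high volume, Junb at 3 ng is 0 in low volume, and Fosb lies at the floor in every library.

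Egr1 is a zinc finger factor and Ier2 a small nuclear protein, both induced early by growth factors. Egr1 had 1.57, 0.785 and 0.641 RPKM in the high-volume libraries, against 0.540, 0.929 and 0.585 RPKM in the low-volume libraries. Ier2 had 8.57, 3.02 and 3.59 RPKM in high volume, against 5.09, 2.13 and 1.68 RPKM in low volume. Ier2 was higher in high volume at each input and highest at 3 ng in each group, and the groups overlapped. Atf3, a stress-induced leucine zipper factor, had 0.977, 2.01 and 1.47 RPKM in high volume, against 1.22, 0.694 and 1.05 RPKM in low volume. Dusp1, a phosphatase that switches off MAP kinases, had 5.31, 2.93 and 3.54 RPKM in high volume and 4.52, 2.23 and 1.89 RPKM in low volume. Btg2, an antiproliferative gene of neural progenitors, had 6.50, 2.93 and 3.80 RPKM in high volume and 6.40, 3.69 and 4.21 RPKM in low volume. The groups of Atf3, Dusp1 and Btg2 overlapped, and Dusp1 and Btg2 were highest at 3 ng in each group. The summed RPKM of the 10 genes was 35.9, 23.2 and 23.0 in high volume, against 30.7, 17.2 and 18.3 in low volume, so the 3 ng library was the highest of each group.

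No gene of the family passed the test of reaction volume. It was run on counts with edgeR's quasi-likelihood test over 16742 genes, with input as a covariate, and 9 of the 10 genes were high enough to enter. Of all genes tested 1 passed, or 0.00597%, and 6.49% had an unadjusted p under 0.05. The log2 difference, high minus low volume, was above 0 in 8 of the 9 genes with a median of 0.58, against 52.0% of all genes and a median of 0.02. Scaling by total counts moved the median of all genes by -0.12 and left 7 of the 9 above 0, Btg2 turning below it. Ier2 gave 0.97 (SE 0.40, unadjusted p = 0.0453, adjusted p = 0.763 by edgeR) and was the 1 member under 0.05 before adjustment. Jund gave 0.52 (SE 0.25), Dusp1 0.67 (SE 0.35), Atf3 0.72 (SE 0.58) and Jun 0.38 (SE 0.34), with edgeR adjusted p of 0.802 to 0.830. Egr1 gave 0.58 (SE 0.52), and Btg2 0.02 with a 95% interval of -0.72 to 0.76. Junb at 1.73 (SE 1.45) and Fos at -1.46 (SE 1.25) had the widest intervals, and each has a 3 ng library with 0 tags. With the 10 and 30 ng libraries alone they gave 0.38 and -0.38. In that setting Jun rose to 0.84, Atf3 to 1.11 and Dusp1 to 0.78. Ier2 gave 0.93, Jund 0.39, Egr1 0.07 and Btg2 -0.11 there, each lower than over all libraries. The estimates over all libraries moved when 1 library was left out. Egr1 ranged from 0.11 (without the low-volume library at 3 ng) to 0.85 (without that at 10 ng), and Jun from 0.16 (without the low-volume library at 10 ng) to 0.80 (without that at 3 ng). Dusp1 ranged from 0.38 (without high volume at 30 ng) to 0.88 (without low volume at 3 ng), and Atf3 from 0.44 (without high volume at 10 ng) to 1.07 (without low volume at 3 ng). Jund ranged from 0.34 (without high volume at 3 ng) to 0.71 (without low volume at 30 ng), Fos from -2.73 (without high volume at 10 ng) to -0.55 (without high volume at 3 ng), and Junb from 0.51 (without low volume at 3 ng) to 3.18 (without high volume at 30 ng). Without the 3 ng libraries edgeR called 1.68% of 16564 genes and none of these. DESeq2 called 2.71% of 6680 genes and gave none of the 9 an adjusted p.

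RNA input gave no call by edgeR either, in this family or among all genes (0.0%), of which 7.76% had an unadjusted p under 0.05. DESeq2 called 0.359% of 14470 genes for input and none of the 9. The slope per doubling of input was below 0 in 6 of the 9 genes, with a median of -0.16, against 0.02 over all genes. Ier2 gave -0.43 log2 units per doubling and did not pass (SE 0.14, unadjusted p = 0.0165, edgeR adjusted p = 0.624). Dusp1 gave -0.28, Btg2 -0.21, Egr1 -0.20, Jund -0.16 and Jun -0.11, while Fos gave 0.11, Atf3 0.04 and Junb 0.01. The test of whether the volume difference changed with input also called 0 of 16742 genes (0.0%), 8.31% being under 0.05 before adjustment. Its most extreme members were Junb, at -1.82 log2 units per doubling (SE 0.98, edgeR adjusted p = 0.599), and Fos, at 1.41 (SE 1.00, edgeR adjusted p = 0.667).

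**Figure D3:**
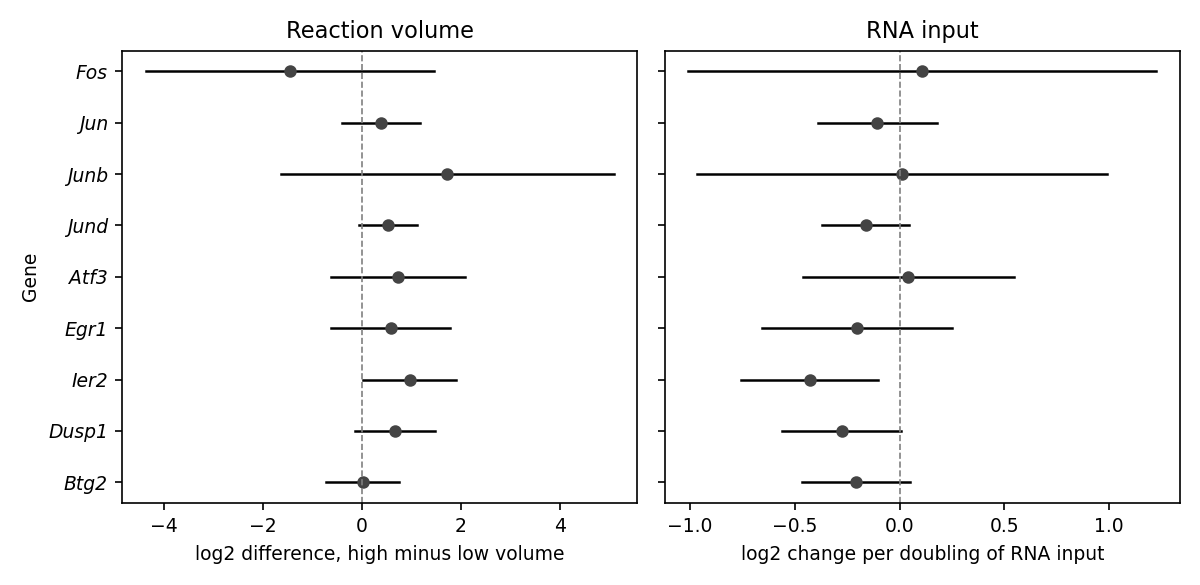
Fitted log2 difference, high minus low volume (left), and log2 change per doubling of RNA input (right), for the 9 tested genes, with points for estimates and lines for 95% intervals. In the left panel only Ier2's interval lies above 0, before adjustment, and those of Fos and Junb are the widest.

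Spread between the 6 libraries exceeded counting error for each tested gene. The variance of tag counts divided by that of counting alone was 54.4 for Ier2, 28.7 for Jun, 28.1 for Dusp1, 26.5 for Btg2 and 23.6 for Jund. It was 15.2 for Egr1, with Fos just above it, 13.5 for Junb and 9.20 for Atf3. The ratio rises with the tag count, and the median gene at each member's own level had 7.17 for Junb, 10.5 for Fos and 11.2 for Atf3. It had 16.1 at the level of Ier2 and Dusp1 and 19.6 at that of Btg2, Jun and Jund, and of the 9 tested genes only Atf3 lay below the median at its level. Among the 10 and 30 ng libraries the ratio was 3.76 for Fos and 0.474 for Junb, where the median of 8760 genes averaging 20 to 500 tags was 5.76. Between the 3 ng pair it was 56.0 for Fos and 41.6 for Junb. There the median of the same genes was 17.4 and their 75th percentile 49.3. With every tag on 1 side the ratio is set by the tag number, 63 in low volume for Fos and 37 in high volume for Junb. Junb's 37 tags could not have reached 49.3, so that percentile ranks neither Fos nor Junb. Junb lay just under the range of 20 to 500 tags, with a mean of 19.7 tags. Tags missing from only the high or only the low side at 3 ng were not particular to Fos and Junb. Among other rapidly induced genes, Homer1 had 0 tags (high) against 87 (low), and Klf4 had 64 (high) against 0 (low). The share of all genes with this pattern was not counted. Btg2 and Atf3 were nearly equal in the 3 ng pair, with ratios of 0.275 and 0.662. Jun had the highest ratio of the 10 genes among the 10 and 30 ng libraries, 33.4.

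**Figure D4:**
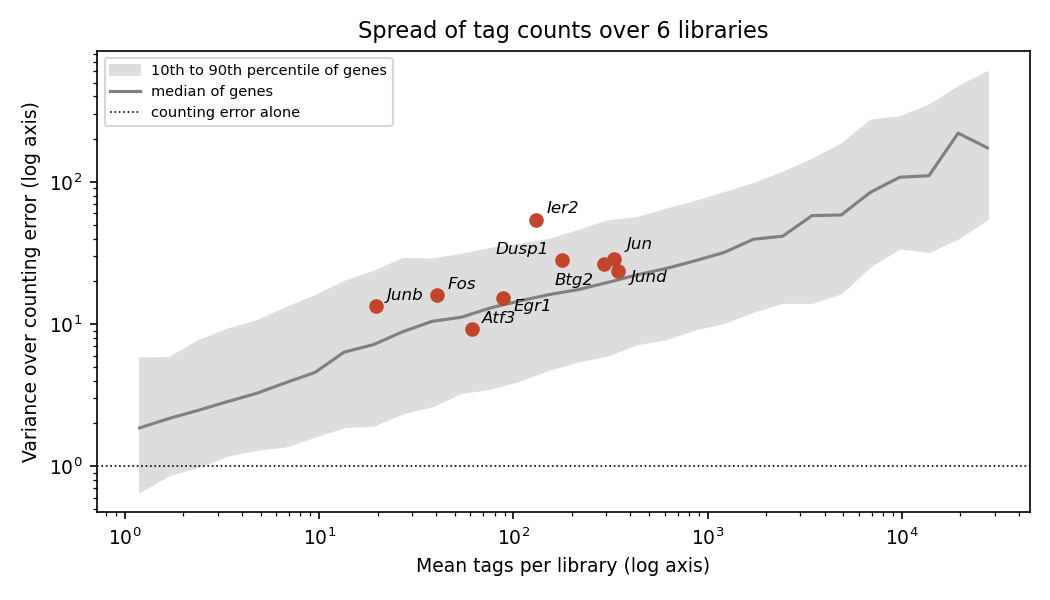
Variance of tag counts over 6 libraries divided by counting error (log y axis) against mean tags per library (log x axis), with the 10th to 90th percentile of genes in grey and 9 of the 10 genes in red. Ier2 at 54.4 stands highest and Atf3 at 9.20 lowest, and counting error alone would lie at 1.

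Tags were uneven along the multi-exon transcripts. In Egr1 all 532 tags fell in exon 2 and none in exon 1 (1964 bases, GC content 66.6%), in every library. Of the 242 Fos tags 76.0% lay in exon 4, the last and longest, and exons 1 to 3 held 0, 7 and 0 tags in high volume, against 28, 6 and 17 tags in low volume. Dusp1's coding transcript held 77.9% of its tags in its last exon. That exon had 100, 144 and 163 tags in high volume, against 155, 139 and 133 tags in low volume. At 3 ng it thus had fewer tags in high volume, although Dusp1's RPKM was higher there. The first exon of Dusp1 (563 bases, GC content 67.9%) had 74, 12 and 27 tags in high volume, against 0, 1 and 3 tags in low volume. That was 19.2% ± 17.3 of Dusp1 tags in high volume and 0.899% ± 1.03 in low volume (SD, n = 3 each, exact permutation p = 0.1, the smallest possible), and the groups did not overlap. Of 8958 intron-containing genes with enough tags, 9.67% had first-exon shares higher in high volume without overlap and 1.37% had them lower. Atf3, whose groups overlapped, had 1.70% ± 1.99 of its tags in its first exon in high volume and 3.85% ± 3.67 in low volume (SD, n = 3 each, exact permutation p = 0.5). Btg2's first exon held 10, 22 and 39 tags in high volume and 0, 21 and 39 tags in low volume. Whole-transcript GC content ran from 49.7% in Btg2 to 67.1% in Jund, with Junb at 62.6% and Ier2 at 60.9%, against a median gene of 49.9%. These sequences are those of GENCODE M21, where the coordinates of Jund, Junb and Fosb differ from the deposited ones. The part of GC content in the tag values was not tested.

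**Figure D5:**
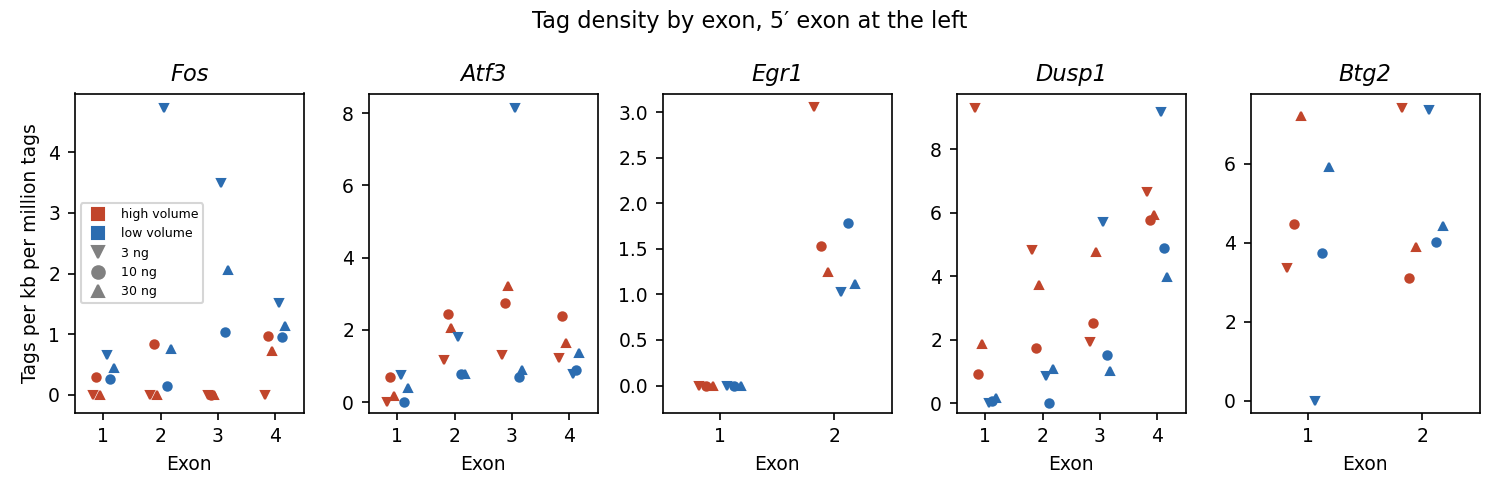
Tags per kilobase, scaled to library size (y axis), in each exon, 5′ exon at the left, for Fos, Atf3, Egr1, Dusp1 (coding transcript) and Btg2, with high volume in red to the left of low volume in blue and the input shown by the marker. Egr1's exon 1 is at 0 in all libraries, and Dusp1's exon 1 is higher in the 3 high-volume libraries than in the 3 low-volume ones.

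Intron tags, a trace of unspliced RNA that stands out when a gene is newly transcribed, were few. Over the 5 genes with an intron that overlaps no exon there were 35 tags, of which Btg2's single intron (1208 bases) held 31. Atf3's introns held 2 tags in 11061 bases, Egr1's 1 in 678 bases, Fosb's 1 in 3574 bases, and Fos's 0 in 522 bases. Over so few bases, the 0 tags of Fos do not tell whether it was newly transcribed. Btg2's intron had 16, 8 and 3 tags in high volume, against 0, 2 and 2 tags in low volume. Pooled over the genes, intron density was 3.41%, 1.80% and 1.09% of exon density in high volume, against 0%, 0.355% and 0.285% in low volume. The groups did not overlap (mean 2.10% ± 1.19 in high volume and 0.213% ± 0.188 in low volume, SD, n = 3 each, two-sided exact permutation p = 0.1, the smallest possible). The background was taken gene by gene and not pooled, over 10306 genes with enough exon and intron tags. Of these, 6.63% had intron densities higher in high volume without overlap and 3.05% had them lower. The median ratio over the 10306 genes was 0.298%, 0.973% and 1.03% in high volume and 0.180%, 0.839% and 0.941% in low volume. Btg2's own ratio was 13.2%, 8.73% and 2.32% in high volume, against 0%, 1.54% and 1.16% in low volume. Jun, Junb, Jund and Ier2 have 1 exon, so reads from their DNA and RNA cannot be told apart.

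Some of these values share reads with neighbours. In Jun, 57.9% of the transcript's bases are also counted for a second same-strand entry that GENCODE M21 does not list. Of those bases, 232 are also shared with exon 1 of the antisense gene Junos, and held 69 of Jun's 1977 tags. Outside Jun, exons 2, 3 and 4 of Junos held 8, 17 and 20 tags over the 6 libraries. In Jund, 18.9% are shared with the opposite-strand entry Gm11175, and held 187 of Jund's 2068 tags. The counting did not use strand: 117 of 117 values from exon intervals entered on both strands were equal, so Jun and Jund reads cannot be told apart from antisense RNA. Dusp1 is represented by a retained-intron transcript that led the coding one by 1 tag, and the coding transcript averaged 3.95 RPKM against 3.40 RPKM. Egr1's 2 transcripts had equal tags, and the shorter averaged 1.24 RPKM against 0.842 RPKM.

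Related genes known to respond to the same signals were read from lists. Among 19 other leucine zipper genes, 0 passed the volume test, 11 had a difference above 0, and the median was 0.06. Atf4, the amino acid and unfolded-protein response factor, averaged 43.7 RPKM, Ddit3, its stress-induced target, 12.2 RPKM, and Atf2 8.43 RPKM. Cebpb and Maff had the largest differences in that list, -3.21 and 1.33 log2 units, with edgeR adjusted p of 0.804 and 0.805. Among 47 other rapidly induced genes, 41 were tested and 0 passed, with 22 above 0 and a median of 0.05. The most abundant were Id3 at 295.5 RPKM, Id2 at 187 RPKM and Plk2 at 71.5 RPKM, the first 2 being inhibitors of helix-loop-helix factors that embryonic tissue also expresses. Some others were singled out after their values were seen. Low in that list were Arc at 0.068 RPKM, Egr3 at 0.028 RPKM and Npas4 at 0.003 RPKM, and Egr4 had 0 tags in all libraries. Homer1 averaged 1.13 RPKM and Sgk1 5.27 RPKM. Nr4a1, an orphan nuclear receptor, averaged 5.33 ± 1.69 RPKM, within the SD of Jund at 5.09 ± 1.44 RPKM (SD, n = 6 each). Arc and Egr2 had the largest volume differences of that list, 1.92 and -1.73, with edgeR adjusted p of 0.808 and 0.806.

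Of 16 phosphatases and feedback inhibitors of MAP kinase signalling, 15 were tested and 0 passed, with 8 above 0 and a median of 0.01. Dusp3 at 29.7 RPKM, Spry2 at 19.9 RPKM and Dusp8 at 14.8 RPKM were the most abundant, against 3.40 RPKM for Dusp1. Dusp4 at 1.59 and Spry4 at 1.01 log2 units differed most, with edgeR adjusted p of 0.763 and 0.805. Of 24 upstream kinases and transcription factors, 0 passed, with 14 above 0 and a median of 0.13. Mapk3, which encodes the kinase ERK1, averaged 131 RPKM, Map3k12, the axon-injury kinase DLK, 13.7 RPKM, and Map2k2 13.3 RPKM. Map3k1 at -0.89 and Mapk9 at 0.63 differed most, with edgeR adjusted p of 0.678 and 0.804.

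By the distance between centred log2 CPM profiles over 6 libraries, 5 of 10355 genes averaging 5 CPM or more lay nearest to the mean profile of the 9 tested genes. They were Hbb-bs, the adult beta globin of red cells, at a distance of 0.121 log2 units, then Rpl11 at 0.138, Myo1e at 0.163, Rrbp1 at 0.167 and Ndst1 at 0.181. The members themselves lay farther away than these, Jund at 0.50, Jun at 0.74, Atf3 and Dusp1 at 0.95 and Btg2 at 0.97 log2 units. Egr1 lay at 1.16, Ier2 at 1.54, Junb at 3.51 and Fos at 4.66 log2 units. Of the genes compared, 98.8% lay nearer than Junb and 99.5% nearer than Fos. A likeness to the mean profile is thus not a likeness to each member. The 6 points share depth and library, so the distances are a description.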

How the data were processed

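Bulk RNA-seq of 1 pooled RNA stock was deposited as 6 tables. Per the submitters' processing notes, the authors used CASAVA 1.8, TopHat2 2.0.8 and Bowtie2 2.1.0 on GRCm38.p1. The counter, the annotation release and the handling of reads with several matches were each not given in the sources used here. Each table gives the deposited raw tag counts per transcript, exon and intron, and the authors' RPKM values, which are normalised to length and library size. Each gene was represented by its transcript with the largest summed tag count. Counts were tested with edgeR 4.0.16 (R 4.3.3; TMM scaling, filterByExpr, quasi-likelihood F test, reaction volume plus log2 input, adjusted p under 0.05), after checking on simulated data. Levels used log2(RPKM + 1) and exact permutation tests. Named genes were all 10 members and, from each list, any called gene, the 3 most abundant and the 2 with the largest volume difference; other genes were named after their values were seen. The members and lists were chosen with earlier results of these data known. DESeq2 1.42.0, other scalings and filters, another transcript choice and left-out libraries were alternatives. Floors and intervals cover counting error only, as tags carry no molecular identifiers.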

Additional observations from a re-analysis of the deposited data

How the results depend on the processing

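No alternative that gave an adjusted p made a call for any of the 9 tested genes. The lowest adjusted p was 0.0690 for the volume difference (Jun, edgeR with the 10 and 30 ng libraries alone) and 0.212 for the input slope (Ier2, DESeq2). Over all genes, 1 volume call became 181 with DESeq2 (which gave the 9 no adjusted p), 11 with no filter on low counts and 278 with the 10 and 30 ng libraries alone, and 0 to 2 when 1 library was left out (0 without the low-volume library at 3 ng, 2 without the high-volume library at 30 ng). With input as a replicate block there were 0. Deviations of same-input libraries correlated at 0.134, 0.0952 and 0.128 for 3, 10 and 30 ng, so the numbers were not taken to pair the samples. The 0 slope calls became 52 with DESeq2 and 2 with no filter, and the 0 interaction calls 254 with no filter. The cause was not tested. The volume difference of Btg2 turned below 0 in 6 settings, and 8 slopes of Fos, Atf3, Egr1, Jun and Junb turned sign, none past the threshold. The 7 called level pairs became 0 with the transcript of highest mean RPKM and 0 when any 1 library was left out. Without the 3 ng libraries, a choice made after seeing the data, 8 of 10 pairs kept 1 order in every library, against 7 in all 6. The intron density difference of 1.89 percentage points ranged from 1.23 to 2.39 when 1 library was left out and was 1.47 over all introns. Low counts limit Fosb, Fos and Junb, which had 0 tags in at least 1 library each; at 3 ng Fos had 0 tags in high volume against 63 in low volume, Junb had 37 tags in high volume against 0 in low volume, at total tags of 14160397 in high volume and 15920990 in low volume.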

Other observations

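Genes that adult ganglia raise after axon injury, or keep high in growing axons, were abundant in part. Gal, a neuropeptide of injured sensory neurons, averaged 1558 RPKM, Gap43, a growth cone protein, 792 RPKM, and Stmn4, a microtubule regulator, 270.2 RPKM, while Il6 and Sprr1a, named after their values were seen, had 0 tags in all 6 libraries. Of 20 such genes 17 were tested and 0 passed the volume test, with 7 above 0 and a median of -0.12. Vip at 2.28 and Hspb1 at 1.93 log2 units differed most between volumes, with edgeR adjusted p of 0.822 and 0.705. Hspb1, a small heat shock protein of injured neurons, had 91, 100 and 97 tags in high volume at 3, 10 and 30 ng, against 27, 19 and 50 tags in low volume. The groups did not overlap, as in 4.59% of all genes tested in that direction and 17.5% in either direction.

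Among 12 heat shock and chaperone genes, 0 passed, with 6 above 0 and a median of 0.05. The constitutive chaperones Hsp90ab1, Hspa8 and Hspe1 averaged 828, 662 and 421 RPKM. The stress-inducible Hspa1a averaged 0.251 RPKM and Hspa1b, named after its value was seen, 0.096 RPKM, and as near-identical copies their reads may be split between them. Bag3 at 0.76 and Hspa1a at 0.37 log2 units differed most, with edgeR adjusted p of 0.804 and 0.916.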
